A study of Homo sapiens with 28 samples.

Results

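The libraries described here are 6 of the 28 RNA-seq libraries of the series: 3 from cultures of cells out of tumors treated with Palbociclib plus Telaglenastat (the combination) and 3 from cultures of cells out of tumors treated with Telaglenastat alone (spelled Telaglenestat in the sample labels). They were chosen by treatment label alone. The tumors were xenografts of HCT116 cells, a human colorectal carcinoma line, here carrying luciferase and GFP, in NOD SCID mice that lack a working adaptive immune system. Both groups of mice had received Telaglenastat by gavage at 150 mg/kg/day for 23 days, and those of the combination group also Palbociclib at 100 mg/kg/day. For each treatment, 3 tumors were digested with collagenase and trypsin and plated in medium with glutamine, glucose and serum, without drug. Each culture is a separate cell line from 1 tumor, and which tumor gave which culture was not given in the sources used here. The comparison therefore asks what differs between cells that outlived the combination and cells that outlived Telaglenastat, once both grow in vitro.

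Telaglenastat keeps cells from using glutamine to feed the TCA cycle. Palbociclib inhibits CDK4 and CDK6, the kinases that, with cyclin D, phosphorylate the retinoblastoma protein and release E2F factors to start DNA replication. Growing cells make ribosomes at a rate set largely by MYC and mTOR, and the messages of ribosomal proteins and of small respiratory chain subunits are short and abundant.

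The 3 Telaglenastat cultures held 8294736, 11418678 and 8318848 reads on genes, and the 3 combination cultures 7927350, 11376945 and 7906357. Of 58278 genes in the table, 13985 passed the filter on low counts and were tested together with the 3 Control and 3 Palbociclib cultures. All 8 markers of HCT116 epithelial identity (among them EPCAM, KRT8 and CDH1) were detected, at a summed level of 1610, 2640 and 1690 CPM (read counts scaled to a common library size) in the Telaglenastat cultures and 1530, 1370 and 1470 CPM in the combination cultures. Of 13 fibroblast markers 3 passed the filter, COL1A1, COL6A3 and ACTA2, while DCN and PDGFRA were at 0 in all 6 cultures. The 13 summed to 20.9, 15.4 and 26.4 CPM in the Telaglenastat cultures and 14.6, 11.6 and 17.5 CPM in the combination cultures. The sums were 8.73 to 12.4 CPM in the Control cultures and 6.33 to 12.6 CPM in the Palbociclib cultures. None of 12 macrophage and leukocyte markers passed the filter (0.5 to 4.82 CPM summed, with CD163, TYROBP and CD3E at 0). Of 10 endothelial markers 1 did, ESAM (3 to 5.89 CPM summed over the 10, with CDH5, CLDN5 and PLVAP at 0).

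No gene passed an adjusted p of 0.05 between the combination and the Telaglenastat cultures. By edgeR's quasi-likelihood test 0 genes were called higher and 0 lower (0% of the genes tested in each direction), while 718 genes (5.13%) had an unadjusted p under 0.05 with a higher level in the combination cultures and 1251 (8.95%) with a lower one. DESeq2 called 29 genes higher (0.207%) and 112 lower (0.801%). limma voom with a quality weight for each group called 0, and had 342 genes higher and 767 lower at an unadjusted p under 0.05. The 3 combination cultures lay wholly above the 3 Telaglenastat cultures for 1043 genes (7.46%) and wholly below them for 870 (6.22%).

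The genes with the smallest p, named after their values were seen, lay mostly lower in the combination cultures. S100A6, a calcium-binding protein of the S100 family (ENSG00000197956.9, chr1:153534599-153536244 of GRCh38), was at 497, 476 and 464 CPM in the Telaglenastat cultures and 313, 291 and 254 CPM in the combination cultures. The groups were far apart and tight, and the Control cultures (320 ± 12.3 CPM, SD, n = 3) and Palbociclib cultures (293 ± 33.3 CPM, SD, n = 3) were near the combination cultures. The log2 fold change was -0.74 (SE 0.11, 95% interval -0.98 to -0.51, adjusted p = 0.0767), and it shrank to -0.22 once trends on GC content and transcript length were taken out of each library. MT2A, a metallothionein that binds zinc and copper, was at 35.4, 62 and 46.2 CPM in the Telaglenastat cultures and 23, 26.2 and 21.2 CPM in the combination cultures. Its log2 fold change was -1.03 (SE 0.21, adjusted p = 0.27), and -0.32 with these trends taken out. USP37, a deubiquitinase that acts at the start of S phase, went the other way, at 59.9, 59.3 and 56.5 CPM against 80.5, 87.3 and 80.6 CPM. The groups did not overlap, with a log2 fold change of 0.50 (SE 0.10, adjusted p = 0.27) that went to 0.31 with the trends taken out.

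TICAM2, an adaptor of Toll-like receptor signalling, had the smallest p of all genes tested (adjusted p = 0.0767). It was at 10.5, 1.81 and 10.5 CPM in the Telaglenastat cultures and had no count in the 3 combination cultures, which puts it at least 63.1-fold lower there when 3 counts over the group are taken as the floor. The read-through gene TMED7-TICAM2, which overlaps it on the same strand, was at 6.01, 13.6 and 1.13 CPM and at 17.9, 15.9 and 13.1 CPM. Summed, the 2 genes were at 16.5, 15.4 and 11.7 CPM in the Telaglenastat cultures and 17.9, 15.9 and 13.1 CPM in the combination cultures, and the log2 fold change of the sum was 0.11 (SE 0.21, adjusted p = 0.844). The total on the locus thus overlapped between the groups, and what differed was the split of reads between the 2 gene entries.

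The spread among the Telaglenastat cultures was the widest of the 4 groups of cultures. The median SD of log2 CPM over the 13985 genes was 0.365 in the Telaglenastat cultures, 0.17 in the combination cultures, 0.168 in the Palbociclib cultures and 0.198 in the Control cultures. The Telaglenastat SD was the larger of the pair for 11098 genes (79.4%), and the ratio of the medians was 2.14. A range of more than 1 log2 unit was found for 4334 genes (31%) among the Telaglenastat cultures and 1555 (11.1%) among the combination cultures. The common biological coefficient of variation, edgeR's measure of spread between libraries beyond counting error, was 0.348 in the Telaglenastat cultures alone and 0.132 in the other 3 groups together. Over all 12 cultures the common value was 0.213. The fit gave each gene its own estimate of spread, drawn toward those of other genes, and used it for all 4 groups. The Telaglenastat and the combination cultures thus shared 1 estimate per gene, although their own spreads differed. The common value over all 12 cultures lay below that of the Telaglenastat cultures and above that of the other 3 groups.

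**Figure D1:**
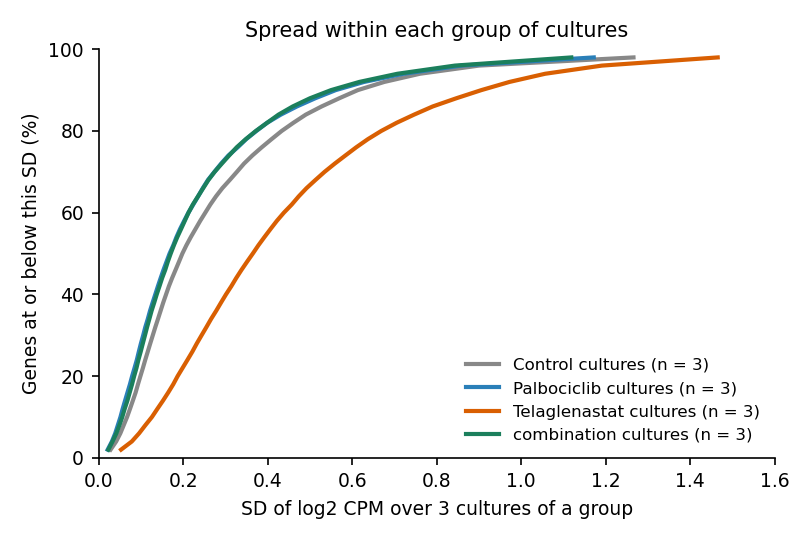
Share of the 13985 tested genes (percent, vertical axis) whose SD of log2 CPM over the 3 cultures of a group is at or below the value on the horizontal axis. The Telaglenastat curve lies to the right of the other 3, with a median of 0.365 against 0.168 to 0.198.

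The precision of the comparison came from the spread pooled over the 12 cultures. In the fit of 12 cultures the median SE of the log2 fold change was 0.23, and the median half-width of its 95% interval was 0.495, a 1.41-fold difference. At a mean of 7 log2 CPM and above the median half-width was 0.275, and from 1 to 3 log2 CPM it was 0.835. With the 6 compared cultures alone it was 0.581 over all genes. In that edgeR fit 245 genes were higher and 658 lower in the combination cultures at an unadjusted p under 0.05, out of 13367 tested. With 1 Telaglenastat culture left out the median SE was 0.224 to 0.238. For the typical gene in the fit of 12 cultures, an estimated difference below the half-width of 0.495 did not reach an unadjusted p under 0.05. For 1415 genes (10.1%) the difference between the group means exceeded the whole range of the Telaglenastat cultures.

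The 3 Telaglenastat cultures also differed from each other in kind. Correlations of log2 CPM over genes ran from 0.9395 to 0.9522 among them and from 0.9724 to 0.9764 among the combination cultures, and these are across genes, which are not independent replicates. With combination cultures 1, 2 and 3, Telaglenastat culture 1 was at 0.9727, 0.9714 and 0.968, and culture 3 at 0.9548, 0.9645 and 0.9592. Telaglenastat cultures 1 and 3 were thus each closer to every combination culture than to any other Telaglenastat culture. Culture 2 was at 0.9398, 0.9394 and 0.9458 with the combination cultures. The first principal component of the 12 cultures (27.1% of the variance) set Telaglenastat culture 2 apart at -72.2, with Control cultures 3 and 1 next at -31.6 and -28. The second (14.7%) put Telaglenastat culture 1 at 36.4, with combination culture 1 at 28.6, and Telaglenastat culture 3 at -46.

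Telaglenastat culture 2 was marked by GC-rich genes and culture 3 by short transcripts. The slope of a culture's deviation from the 12-culture mean was 0.42 log2 units per SD of GC content (8.37 percentage points) in culture 2, against -0.03 in culture 1 and -0.05 in culture 3. In the combination cultures it lay between -0.13 and -0.06. The slope on log2 transcript length was -0.18 per SD in culture 3 and between 0.02 and 0.05 in the other 5. With both trends taken out of every library, the median SD of the Telaglenastat cultures was 0.28 and that of the combination cultures 0.17. Unadjusted p under 0.05 then covered 323 genes (2.31%) higher and 494 (3.53%) lower in the combination cultures, again with 0 past the adjusted threshold in edgeR.

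**Figure D2:**
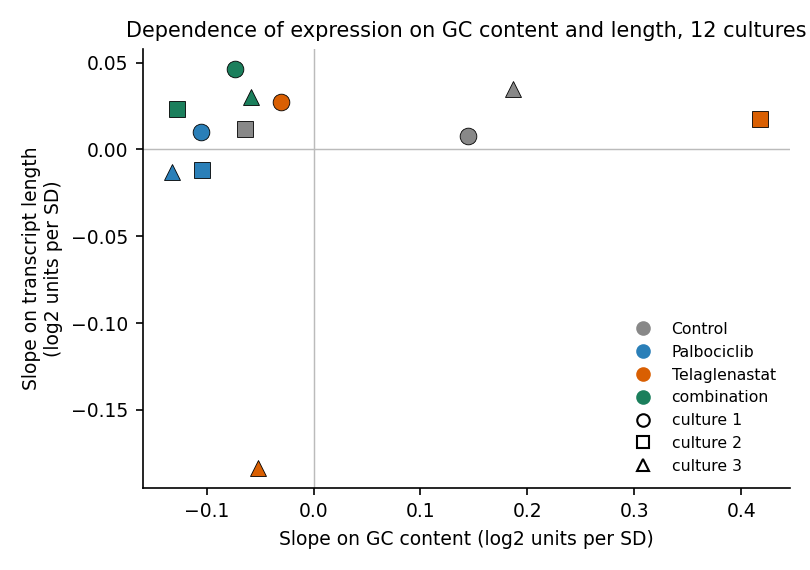
Slope of each culture's deviation from the 12-culture mean of log2 CPM on GC content (horizontal axis) and on log2 transcript length (vertical axis), each in log2 units per SD over 12142 genes; colors are groups and symbols culture numbers. Telaglenastat culture 2 stands apart at a GC slope of 0.42 and Telaglenastat culture 3 at a length slope of -0.18.

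The 10 protein-coding genes of the widest range among the Telaglenastat cultures, out of those with a mean of at least 3 log2 CPM, were of both sorts. EIF3CL, GALNT4, MEMO1, TMED7-TICAM2 and ENSG00000256500 overlap another gene on the same strand or have a near-identical copy. EIF3CL, such a copy of the translation initiation subunit EIF3C, was at 46.5, 132 and 0 CPM in the Telaglenastat cultures and 64, 37.9 and 39.4 CPM in the combination cultures, whereas the sum of both was at 502, 611 and 478 CPM against 501, 546 and 573 CPM (log2 fold change 0.02, SE 0.11, adjusted p = 0.935). The other 5 share no exon with a same-strand gene. SFN, the 14-3-3 sigma protein induced by p53, was at 7.68, 59.1 and 13.3 CPM, so that culture 2 was far above the other two, and at 9.24, 9.77 and 10.2 CPM in the combination cultures. INTS1 (6.85, 42.4 and 11.1 CPM), PTPN23 (11.6, 33.9 and 5.16 CPM) and PLEKHM2 (9.09, 29.7 and 4.78 CPM) shared the peak in culture 2. NIBAN1, a stress-induced protein linked to translation control, was highest in culture 1, at 59.2, 24.1 and 9.44 CPM, and at 42, 18.6 and 30.5 CPM in the combination cultures.

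Cytosolic ribosomal proteins, which make up the ribosome with its RNA, lay lower in the combination cultures than in each of the 3 Telaglenastat cultures, taken as a list. Of 75 tested members 0 passed the adjusted threshold in edgeR. DESeq2 called 43 lower (112 over all genes, 0.801%) and the edgeR fit of all 28 libraries 45 (279 over all genes). In the main edgeR test 57 (76%) had an unadjusted p under 0.05, each with a lower level in the combination cultures. That share was 8.95% over all genes. The groups did not overlap in that direction for 48 members (64% of the list, beside 6.22% of all genes). The list's median log2 fold change was -0.46, beside -0.04 over all genes tested. The mean deviation of the list from the 12-culture mean was 0.16, 0.34 and 0.49 log2 units in Telaglenastat cultures 1, 2 and 3, and -0.12, -0.23 and -0.20 in the combination cultures. All 3 Telaglenastat cultures thus stood above all 3 combination cultures. The Control cultures (0.04, -0.14 and 0.01) and the Palbociclib cultures (-0.16, -0.04 and -0.16) lay below the Telaglenastat cultures too. The median difference from Control, which shares its samples with the main comparison, was 0.41 for the Telaglenastat cultures and -0.09 for the combination cultures.

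The messages of ribosomal proteins, as a class, carry a run of pyrimidines at their start, through which mTOR controls their translation. The 30 bases around the RefSeq start sites (GRCh38.p14, 15 on each side, gene strand, 5′ to 3′) of the 4 ribosomal protein genes of smallest p are shown because these genes lead the list, with CTTTC and CTTTT in capitals.
RPLP2 (chr11:809952-809981, + strand): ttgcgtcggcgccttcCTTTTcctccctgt
RPLP1 (chr15:69452803-69452832, + strand): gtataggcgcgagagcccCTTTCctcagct
RPS29 (chr14:49598696-49598725, - strand): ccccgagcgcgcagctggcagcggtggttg
RPS10 (chr6:34426055-34426084, - strand): ccgcgcatgctccttcCTTTCcagccccgg
One of the 2 motifs, which overlap each other by at most 1 base, was found on the gene strand in 39 of the 61 ribosomal protein genes with a window in the RefSeq table (63.9%) and in 2768 of 35116 windows of all genes (7.88%). On the other strand the shares were 1.64% and 5.49%. The window of RPS29 shown above held neither motif on the gene strand.

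RPLP2 and RPLP1 encode the acidic stalk proteins of the large ribosomal subunit. RPLP2 was at 140, 292 and 200.3 CPM in the Telaglenastat cultures and 109, 93.5 and 98.1 CPM in the combination cultures, a log2 fold change of -1.07 (SE 0.20, adjusted p = 0.27). RPLP1 was at 216, 385 and 313 CPM against 169, 172 and 164 CPM, with -0.86 (SE 0.16, adjusted p = 0.27). For both, culture 1 was the lowest Telaglenastat culture and still above every combination culture. RPS29, a small subunit protein, was at 279, 288 and 369 CPM against 200.1, 186 and 195 CPM. Its log2 fold change was -0.69 (SE 0.13), and those of the small subunit proteins RPS10 and RPS16 were -0.69 (SE 0.13) and -0.73 (SE 0.14), each with an adjusted p of 0.27. RPLP2, RPS29 and RPS10 each overlap another gene on their strand. With the GC content and length trends taken out, the list's median was -0.27, beside -0.008 over all genes tested. Of its 75 members 45 then had an unadjusted p under 0.05 with a lower level in the combination cultures, beside 3.53% of all genes. RPLP1 then stood at -0.76 and RPS29 at -0.51, whereas RPLP2 moved to -0.37, RPS10 to -0.30 and RPS16 to -0.34.

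Nuclear genes of the mitochondria lay lower in the combination cultures than in Telaglenastat cultures 2 and 3, but not than in culture 1. Of 77 nuclear genes of the respiratory chain, 30 (39%, beside 8.95% of all genes) had an unadjusted p under 0.05 with a lower level and 1 with a higher level, 0 passed in edgeR, and the median log2 fold change was -0.40. Their mean deviation was -0.16, 0.26 and 0.54 in the Telaglenastat cultures and -0.22, -0.13 and -0.16 in the combination cultures, so that culture 1 lay within the range of the combination cultures. The 75 genes of the mitochondrial ribosome had a median of -0.32, with 22 (29.3%) lower at an unadjusted p under 0.05, and mean deviations of -0.29, 0.22 and 0.47 against -0.28, -0.11 and -0.14. With the GC content and length trends taken out, the medians were -0.19 and -0.14, with 19 and 8 members lower at that level (3.53% of all genes). COX5B, a subunit of cytochrome c oxidase, did not overlap, at 45.2, 50 and 61.9 CPM against 35.9, 30.2 and 28.2 CPM (log2 fold change -0.74, SE 0.14, adjusted p = 0.27). COX6B1 of the same complex was at 59, 98.1 and 95.8 CPM against 46.8, 50.6 and 51 CPM (log2 fold change -0.77, SE 0.19, adjusted p = 0.277). With the trends taken out they stood at -0.47 and -0.33. The 15 mitochondrially encoded genes went the other way in cultures 2 and 3, with mean deviations of 0.28, -0.48 and -0.22 against 0.09, 0.04 and -0.12. Their median log2 fold change was 0.09 (-0.04 without culture 2), with no member at an unadjusted p under 0.05. By the sign of the log2 fold change 12 members were higher in the combination cultures and 3 lower. MT-ND4, a complex I subunit whose gene overlaps another on its strand, was at 11930, 7030 and 6525 CPM against 11120, 10000 and 9247 CPM. MT-ND3, the member of smallest p, was lower, at 1127, 625.5 and 1226 CPM against 861, 929 and 715 CPM (log2 fold change -0.25, SE 0.20, adjusted p = 0.563).

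Telaglenastat culture 2 was the highest of the 6 cultures in the glycolysis and pentose phosphate lists. The 25 glycolysis genes had mean deviations of -0.04, 0.49 and 0.04 in the Telaglenastat cultures and between -0.09 and 0.04 in the combination cultures, with a median log2 fold change of -0.13 and 6 members (24%, beside 8.95% of all genes) lower at an unadjusted p under 0.05. SLC16A3, the lactate exporter MCT4, was at 20.6, 108 and 24 CPM against 18.6, 20.2 and 16 CPM, and ALDOA, the aldolase of glycolysis, at 159, 578 and 162 CPM against 153, 140 and 154 CPM. In both, culture 2 stood far above the other 5 cultures, and without it the log2 fold changes went from -1.48 to -0.29 for SLC16A3 and from -1.01 to -0.12 for ALDOA, genes that each overlap another on their strand. The 13 genes of the pentose phosphate pathway had a median of -0.25, with 3 members, among them TALDO1 and TKT, lower at that level (23.1%). TALDO1, the transaldolase of the pathway, was at 62.4, 124 and 79.4 CPM against 58.2, 55.5 and 50.6 CPM (log2 fold change -0.70, SE 0.20, adjusted p = 0.277), and at -0.38 without culture 2. With the trends taken out it was at -0.26, and the medians of the glycolysis and pentose phosphate lists were -0.01 and -0.13. Of 25 TCA cycle genes 2 (8%, below the 8.95% of all genes) were lower at an unadjusted p under 0.05, and the list's median of -0.07 went to 0.08 without culture 3. Of these 2, MDH2, mitochondrial malate dehydrogenase, was at 135, 200 and 198 CPM against 120, 119 and 135 CPM (log2 fold change -0.51, SE 0.14, adjusted p = 0.277). The 25 genes of cholesterol synthesis had mean deviations of -0.42, 0.40 and 0.27 against -0.38, -0.01 and -0.12, so that culture 1 of each treatment was the low one, and a median of -0.25 (-0.11 with the trends taken out).

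The glutamine and amino acid transport lists had medians near 0. Of 23 tested genes of glutamine and glutamate handling 3 (13%, beside 8.95% of all genes) had an unadjusted p under 0.05 with a lower level, among them GSS, which makes glutathione, and PYCR1, an enzyme of proline synthesis, and the median was 0.04. The amino acid transporter list (23 tested) had a median of 0.01. SLC7A2, a carrier of arginine and lysine, did not overlap, at 27.3, 35.2 and 31.9 CPM against 45.8, 50.7 and 47.4 CPM (log2 fold change 0.61, SE 0.15, adjusted p = 0.277, and 0.35 with the trends taken out). SLC1A5, the main glutamine carrier, was at 92.2, 267 and 119 CPM against 93.3, 77.9 and 101 CPM.

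Of the kinases that Palbociclib inhibits, CDK6 was at 93.3, 101 and 93.3 CPM against 104, 120 and 99.4 CPM, a log2 fold change of 0.17 (SE 0.15, 95% interval -0.15 to 0.48). CDK4 was at 120, 194 and 184 CPM against 107, 119 and 130 CPM, so that culture 1 overlapped the combination cultures, with a log2 fold change of -0.48 (SE 0.15, adjusted p = 0.297). CCND1, which encodes cyclin D1, was at 578, 531 and 537 CPM against 614, 623 and 574 CPM (log2 fold change 0.14, SE 0.11). RB1, the retinoblastoma protein, and RBL1, its relative p107, did not overlap, RB1 at 113, 101 and 105 CPM against 127, 137 and 125 CPM and RBL1 at 36.1, 49 and 41.2 CPM against 58.2, 60.1 and 58 CPM. Their log2 fold changes were 0.28 (SE 0.10, adjusted p = 0.309) and 0.48 (SE 0.12, adjusted p = 0.277). CDKN1A, the CDK inhibitor p21, was at 157, 153 and 115 CPM against 107, 92.9 and 101 CPM, also without overlap (log2 fold change -0.50, SE 0.14, adjusted p = 0.277). With the GC content and length trends taken out, RB1 was at 0.10, RBL1 at 0.26, CDKN1A at -0.18 and CDK4 at -0.31. The 22 tested genes of the CDK4/6 and cyclin D axis had 3 members (13.6%) at an unadjusted p under 0.05 in each direction, beside 5.13% of all genes higher and 8.95% lower, and a median of -0.03.

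The proliferation lists had their lowest mean in Telaglenastat culture 1. The 43 S phase genes had mean deviations of -0.60, -0.02 and 0.17 in the Telaglenastat cultures and -0.23, 0.06 and 0.01 in the combination cultures, and the 54 G2/M genes -0.32, 0.05 and 0.04 against -0.18, 0.08 and -0.02. Their medians were 0.12 and 0.11, with 3 (6.98%) and 8 (14.8%) members higher in the combination cultures at an unadjusted p under 0.05, beside 5.13% of all genes. With the GC content and length trends taken out, 0 and 1 were, beside 2.31% of all genes, and the medians were 0.04 and 0.01. MKI67, the proliferation antigen Ki-67, was at 521, 601 and 391 CPM against 677, 802 and 712 CPM, without overlap (log2 fold change 0.53, SE 0.14, adjusted p = 0.277, and 0.34 with the trends taken out). The long mitotic genes CENPE (log2 fold change 0.37), CKAP5 (0.33) and CENPF (0.38) did not overlap either, with adjusted p of 0.277 to 0.294, and all 3 were at 0.11 to 0.12 with the trends taken out. MYC was at 193, 233 and 283 CPM against 191, 163 and 189 CPM, a log2 fold change of -0.39 (SE 0.13, adjusted p = 0.3) that went to 0.05 with the trends taken out. The 46 MYC and nucleolar ribosome biogenesis genes had a median of -0.13 and mean deviations of -0.38, 0.29 and 0.16 against -0.28, -0.11 and -0.08. At an unadjusted p under 0.05 stood 10 lower (21.7%, beside 8.95% of all genes) and 2 higher (4.35%, beside 5.13%). With the trends taken out 2 were lower and 0 higher, beside 3.53% and 2.31% of all genes, and the median was -0.03.

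The immune, epithelial and redox lists had medians below 0, and Telaglenastat culture 2 was the highest of the 6 cultures in each. Of 34 interferon and antigen presentation genes 8 (23.5%, beside 8.95% of all genes) were lower at an unadjusted p under 0.05 (median -0.27). HLA-B, a class I antigen presenting molecule, was at 87.3, 94.5 and 86 CPM against 69.1, 56.9 and 61.7 CPM (log2 fold change -0.51, SE 0.12, adjusted p = 0.277), and ISG15, a ubiquitin-like interferon product, at 1.53, 8.1 and 2.14 CPM against 0.739, 1.06 and 0.501 CPM (log2 fold change -2.33, SE 0.65, adjusted p = 0.277). With the trends taken out HLA-B, whose gene overlaps another on its strand, was at -0.08 and ISG15 at -1.36. Of 35 epithelial adhesion and keratin genes 11 (31.4%) were lower at that level (median -0.28), among them KRT19, at 102, 287 and 122 CPM against 80.6, 79.9 and 92.1 CPM. Of 22 glutathione and NRF2 genes 8 (36.4%) were lower (median -0.19), among them the ferritin light chain FTL, at 394, 1061 and 500.2 CPM against 338, 294 and 365 CPM. With the trends taken out, 3 interferon, 5 epithelial and 5 NRF2 genes were lower at that level, beside 3.53% of all genes in the same fit. The medians were then -0.10, -0.08 and -0.11, and KRT19 was at -0.32 and FTL at -0.48. VEGFA, the main angiogenic factor, was at 52.6, 82.7 and 47.1 CPM against 52.9, 43.5 and 49.6 CPM (log2 fold change -0.33, SE 0.21, adjusted p = 0.475). The 25 hypoxia and VEGF genes had a median of -0.10, with 2 (8%) higher and 1 (4%) lower at an unadjusted p under 0.05. The 30 ATF4 stress response genes had a median of -0.16, with 2 (6.67%) higher and 1 (3.33%) lower. Of all genes 5.13% were higher and 8.95% lower at that level. Of the 27 p53 targets and of the 32 mesenchymal genes 3 each (11.1% and 9.38%) were lower at that level, close to the share of all genes, with medians of -0.11 and -0.14. The deviations by culture of 13 lists are plotted next to those of all genes.

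How far the result rested on single Telaglenastat cultures was seen by leaving each out. Without culture 1, 325 genes (2.27% of 14332 tested) were called higher and 591 (4.12%) lower in the combination cultures. Without culture 2, 0 were called higher and 1 lower, which was TICAM2, and without culture 3, 0 in each direction. At an unadjusted p under 0.05 stood 1557 higher (10.9%) and 2260 lower (15.8%) genes without culture 1, 615 and 670 without culture 2, and 830 and 1944 without culture 3. Leaving out any one of the 9 other cultures gave 0 calls in both directions.

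Since 0 genes were called with culture 1 present, the position of culture 1 in those called without it follows in large part from how they were found and is given as a description. Of the 588 lower genes that were also tested with all 12 cultures, culture 1 was nearer to the combination mean than to the mean of cultures 2 and 3 for 535, and at or below the combination mean for 256. Of the 325 higher genes, culture 1 was nearer to the combination mean for 295 and at or above it for 140. The lower genes included 42 of the 75 cytosolic ribosomal proteins, 25 of the 77 nuclear respiratory chain genes, 21 of the 75 mitochondrial ribosome genes and 11 of the 46 MYC and nucleolar genes. The higher genes included 5 of the 15 mitochondrially encoded ones. Over all genes tested without culture 1, 4.12% were called lower and 2.27% higher. S100A6 (adjusted p = 0.0136), RPLP2 and RPLP1 (0.00351 each), CDK4 (0.0136), MYC (0.0284) and USP37 (0.0248) were among those called. With the GC content and length trends also taken out, an alternative chosen after seeing the data, 31 genes were called higher and 36 lower without culture 1, and these included 31 of the 588 lower and 6 of the 325 higher genes.

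**Figure D3:**
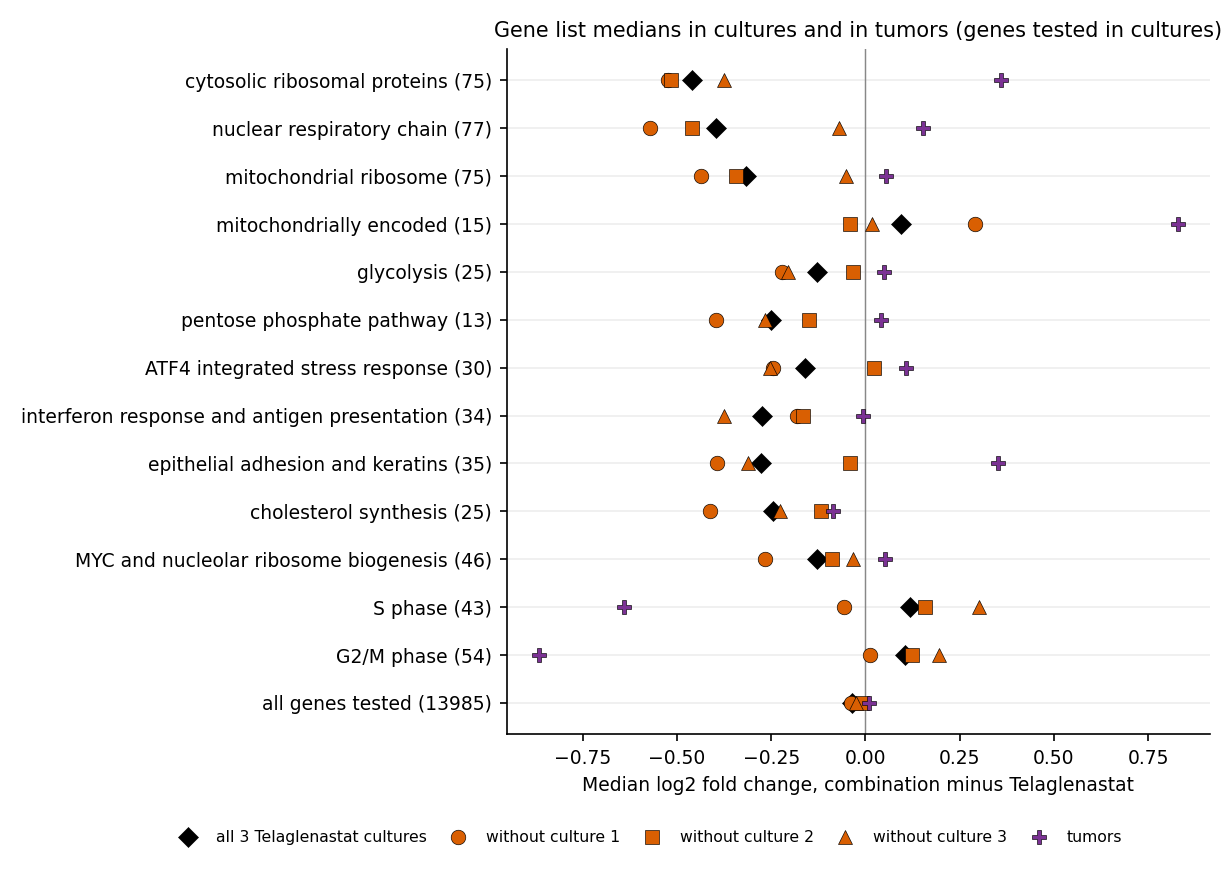
Median log2 fold change (combination minus Telaglenastat, horizontal axis) of 13 gene lists and of all tested genes, with all 3 Telaglenastat cultures (black diamonds), with 1 of them left out (orange circle, square or triangle for culture 1, 2 or 3) and in the tumors (purple plus signs). The ribosomal protein median stays between -0.52 and -0.38 in the cultures, the respiratory chain median moves to -0.07 without culture 3, and both proliferation lists lie at -0.64 and -0.87 in the tumors.

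The list medians moved by unequal amounts. That of the ribosomal proteins was -0.52 without culture 1, -0.52 without culture 2 and -0.38 without culture 3. That of the nuclear respiratory chain was -0.57, -0.46 and -0.07, and that of the mitochondrial ribosome -0.44, -0.34 and -0.05, so that both came close to 0 without culture 3. The epithelial list went from -0.28 to -0.04 and the ATF4 list from -0.16 to 0.02 without culture 2. The S phase list went from 0.12 to -0.06 without culture 1.

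The tumors themselves, 4 under each treatment, gave another picture from other libraries of the same treatments. In them 1326 genes were called higher (8.93% of 14848 tested) and 1468 lower (9.89%) under the combination than under Telaglenastat. Of the 2712 called genes that were also tested in cultures, 596 (22%) had the same sign there, and 38% of 2265 did with the GC content and length trends taken out of both. Cell cycle genes fell in the tumors, 37 of 43 S phase genes and 46 of 54 G2/M genes, and MKI67 went from between 465 and 579 CPM in 4 Telaglenastat tumors to between 174 and 280 CPM in 4 combination tumors (log2 fold change -1.30, SE 0.12, adjusted p = 2.61e-07). Ribosomal proteins rose, 64 of 75, RPLP1 from between 136 and 161 CPM to between 191 and 224 CPM (log2 fold change 0.44, SE 0.11, adjusted p = 0.00846). A tumor library mixes the cells of a whole xenograft, in which fewer cells of a type and less RNA per cell cannot be told apart.

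The difference between the 2 settings was itself tested over all 28 libraries. For 1264 genes (8.17% of 15466) the log2 fold change in cultures was above that in tumors, and for 1382 (8.94%) below it. Among the latter were 71 of the 75 ribosomal proteins, with RPLP1 at a difference of -1.30 (SE 0.20, adjusted p = 8.52e-05), and among the former 25 of the 43 S phase and 39 of the 54 G2/M genes, with MKI67 at 1.82 (SE 0.20, adjusted p = 3.94e-06). Of these 2646 genes, 1738 (65.7%) were also called in the tumors. The test of the difference holds the tumor comparison and its libraries, so this overlap is in part built in. With the trends on GC content and length taken out of every library, 1027 genes were called in all.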

How the data were processed

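Poly(A) RNA of cultured cells and of xenograft tumors was sequenced with a strand-marking kit. The deposited values are whole-number counts of reads per gene, made by the authors with STAR on hg38 (with CASAVA 1.8, per the submitters' processing notes), and whether counting used strand was not given in the sources used here. Fitted were 12 culture libraries of 7198540 to 13815675 reads with edgeR 4.0.16 (R 4.3.3): filterByExpr with a minimum count of 10, TMM scaling, a quasi-likelihood fit with 1 mean per group, and Benjamini-Hochberg adjusted p under 0.05 as the call. CPM and log2 CPM (prior count 2) were computed from the counts. Tumors were fitted apart, and the difference between cultures and tumors with all 28 libraries. Where trends were taken out, each library's smooth trends on GC content and log2 transcript length (splines of 5 degrees of freedom) entered as offsets. limma 3.58.1 and DESeq2 1.42.0 were alternatives, and the fit was tested on simulated data. Genes named were up to 4 members of smallest p per gene list, CDK4, CDK6, CCND1, RB1, MYC and VEGFA, the 10 widest ranges among Telaglenastat cultures and 5 genes per direction for the difference between cultures and tumors, and some genes of the rule are not reported here. S100A6, MT2A, USP37, TICAM2 and RPS16 were chosen after their values were seen. Members and lists were chosen with earlier results of these data known. Replicates are separate cultures, so p-values measure the spread between these few lines. In the main fit this spread was pooled over the 4 groups of cultures and was not that of the 2 compared groups alone. Same-numbered cultures did not deviate together (r 0.14, -0.152 and -0.0249), and no block was used.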

Additional observations from a re-analysis of the deposited data

Results flagged for a closer look

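For 10 genes named by size, the log2 fold change between combination and Telaglenastat differed between cultures and tumors by the interaction test of edgeR over all 28 libraries. The difference (cultures minus tumors) was -12.14 for NUDT3 (adjusted p = 0.00696), -10.28 for TICAM2 (0.0069) and -7.238 for ISY1-RAB43 (1.06e-05), 3 genes that overlap others on their strand and have groups with libraries at 0, so that the fitted sizes are no bounds. NUDT3 was at 2.22, 13.5 and 11 CPM in the Telaglenastat cultures and 0, 0 and 2.08 CPM in the combination cultures, and at 0 in the 4 Telaglenastat tumors. SAMD9L, an interferon-induced gene, was at or below 0.793 CPM in all 6 cultures and between 10.6 and 36.8 CPM in the 8 tumors, with a fitted difference of -5.372 (0.0209) that is no bound either, since the 3 combination cultures were at 0. CD68, a macrophage gene, was at -3.995 (0.0383) with levels of 0 to 2.8 CPM in cultures and 0.601 to 7.2 CPM in tumors.

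In the other direction PEG10, an imprinted gene of retrotransposon origin, differed by 1.966 (8.7e-06). It was at 46.5, 51 and 41.2 CPM against 40.7, 53.8 and 46.3 CPM in cultures, and fell in tumors from between 52.5 and 84.9 CPM to between 16.2 and 21.3 CPM. ANXA10 differed by 2.404 (0.013), CLGN by 2.035 (0.0278), SEMA3D by 1.948 (0.0391) and RIBC2 by 1.859 (0.0445). With the GC content and length trends taken out, the adjusted p of CD68 (0.104), CLGN (0.0889) and SEMA3D (0.146) missed the threshold.

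By Dixon's test, which flags about 1 in 20 groups by chance, a Telaglenastat tumor stood apart at 18.02 CPM of ANXA10, with the other 3 between 10.9 and 11.3 CPM. The test also marked 0.1396 CPM of ISY1-RAB43 in a Telaglenastat tumor, but with the other 3 at 0 any count does so, and this value shows no tumor standing apart.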

How the results depend on the processing

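The count of 0 higher and 0 lower genes between combination and Telaglenastat cultures was also found with DESeq2 size factors in edgeR, a minimum of 10 counts in every library, protein-coding genes, the 6 compared cultures, limma voom with group weights, the replicate block, the GC content and length correction, and block and correction together. All 28 libraries in 1 fit called 56 higher and 279 lower (93 of them listed genes), DESeq2 29 and 112 (57 listed), and no filter on low counts 54 and 698 (157 listed), and the cause was not tested. Leaving out 1 of the 12 cultures gave 0 to 325 higher, 0 to 591 lower and 0 to 158 listed genes, and every count above 0 came without Telaglenastat culture 1, except 1 lower gene without culture 2. Alternatives chosen after seeing the data, which corrected for GC content and length as well, gave 31 higher, 36 lower and 14 listed genes without culture 1, and 1 lower gene without culture 2. The 2646 genes that differed between cultures and tumors became 1390 with the compared groups only, 1340 with limma voom, 1027 with the correction, 2033 with the replicate block, 862 with block and correction, and 1718 to 3921 with 1 of the 28 libraries left out, the lowest without combination culture 2. The median SD of the Telaglenastat cultures was 0.2783 to 0.3178 with 1 of them left out. Genes of low counts were limited by depth, with a median interval half-width of 1.37 log2 units under 1 log2 CPM. With 3 cultures a group, an exact permutation test of a single value cannot go below p = 0.1.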
